A study of Mus musculus with 6 samples.

Results

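The genes described here are the alpha and beta tubulins, the subunits from which microtubules are built, measured in the inguinal fat (IngWAT) of mice that lost *Hdac3* in adipocytes (H3atKO) and of their floxed controls. Of 46517 gene rows in the deposited counts, 10 were taken by matching their Ensembl identifiers to tubulin isotype symbols in GENCODE M21 (GRCm38), 5 of them alpha (*Tuba1a*, *Tuba1b*, *Tuba1c*, *Tuba4a* and *Tuba8*) and 5 beta (*Tubb2a*, *Tubb2b*, *Tubb4b*, *Tubb5* and *Tubb6*). RNA from 3 floxed and 3 H3atKO pools was sequenced, each pool holding RNA of 2 or 3 mice of the same group. All mice were C57Bl6, 5 to 9 months old and fed a chow diet. The H3atKO mice came from a cross of *Hdac3* floxed mice with the Adipoq-cre line B6:FVB-Tg(Adipoq-cre)1Evdr/J, in which the adiponectin promoter drives the recombinase in adipocytes, so that the other cells of the tissue keep their *Hdac3*. The labels do not state whether the floxed mice carried the recombinase. Nothing beyond the pooling says how the animals were shared out, and p-values measure the spread between these pools.

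*Hdac3*, which codes for the deacetylase that was removed, was measured at 68.9, 80.3 and 65.8 cpm (counts relative to the library size, scaled by TMM factors) in floxed replicates 1 to 3 and at 27.4, 21.1 and 12.9 cpm in H3atKO replicates 1 to 3, a log2 fold change of -1.83 (adjusted p = 0.0213 from limma). The libraries held 23865507 to 35200685 counts on genes, so that a count of 0 allows a level of up to 3 counts, or 0.0659 to 0.0729 cpm in floxed and 0.124 to 0.190 cpm in H3atKO samples, for counting error alone. The groups differed in other ways. Genes of the mitochondrial genome took 6.92 to 12.9% of counts in floxed and 26.9 to 35.3% in H3atKO samples, and the TMM factors were 1.295 to 1.375 and 0.663 to 0.921. The deviation of each sample from the mean ran with the GC content of the genes in opposite directions in the groups, with Spearman's rho across genes of 0.0969 to 0.80 in floxed and -0.711 to -0.433 in H3atKO samples. GC content and genotype therefore cannot be told apart, and values after a GC correction stand beside the others. Adipocyte markers summed to 13196 to 28610 cpm in floxed and 15228 to 26334 cpm in H3atKO samples and were abundant in all of them. Of the 6 markers, 5 had the lower and 1 the higher mean in H3atKO, and limma called 0 of them.

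Alpha and beta tubulin join into a heterodimer, and heterodimers add head to tail into the protofilaments of the microtubule. Each subunit is made from several genes. The proteins of these genes differ most in the acidic tail at the end of the chain, which lies on the microtubule surface, carries added glutamates and is met by motors and other binding proteins. In fat cells microtubules carry vesicles of the glucose transporter GLUT4 and lipid droplets, and their network is remodelled as a fibroblast-like precursor rounds up around its lipid. Most alpha tubulins end in a tyrosine, which the vasohibins remove and tubulin tyrosine ligase restores.

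In the deposited rows the genes carry the Ensembl identifiers ENSMUSG00000072235 (*Tuba1a*), ENSMUSG00000023004 (*Tuba1b*), ENSMUSG00000043091 (*Tuba1c*), ENSMUSG00000026202 (*Tuba4a*), ENSMUSG00000030137 (*Tuba8*), ENSMUSG00000058672 (*Tubb2a*), ENSMUSG00000045136 (*Tubb2b*), ENSMUSG00000036752 (*Tubb4b*), ENSMUSG00000001525 (*Tubb5*) and ENSMUSG00000001473 (*Tubb6*). They are close copies of each other, and that bears on how reads can be told apart. The last 60 bases of the coding sequence, stop codon included, are printed below 5′ to 3′ from the GENCODE M21 transcripts (GRCm38) because they code for the tail by which the isotypes differ. Capitals mark each base that lies at the centre of a stretch of 31 bases found in the transcripts of no other gene outside the locus.
Tuba1c: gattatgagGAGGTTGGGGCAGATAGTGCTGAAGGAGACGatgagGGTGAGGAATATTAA
Tuba4a: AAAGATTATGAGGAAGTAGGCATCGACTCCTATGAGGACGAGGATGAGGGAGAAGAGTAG
Tuba8: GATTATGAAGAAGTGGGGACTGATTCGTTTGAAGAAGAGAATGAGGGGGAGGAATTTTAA
Tubb2a: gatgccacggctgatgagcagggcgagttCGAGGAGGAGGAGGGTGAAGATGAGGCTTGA
Tubb2b: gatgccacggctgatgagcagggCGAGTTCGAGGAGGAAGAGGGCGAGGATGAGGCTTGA
Tubb4b: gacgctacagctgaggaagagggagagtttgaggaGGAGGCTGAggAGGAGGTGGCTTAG
Tubb5: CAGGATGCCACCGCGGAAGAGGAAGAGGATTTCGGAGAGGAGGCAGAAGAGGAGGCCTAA
The last codon before the stop is a tyrosine codon (TAT) in *Tuba1c*, a glutamate codon (GAG) in *Tuba4a* and a phenylalanine codon (TTT) in *Tuba8*. *Tuba4a*, *Tuba8* and *Tubb5* are in capitals over all 60 bases, against 46 of 60 in *Tuba1c*, 31 and 37 of 60 in *Tubb2a* and *Tubb2b* and 23 of 60 in *Tubb4b*.

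Over whole transcripts the same division held. Of the stretches of 50 bases along the longest transcript, 35.7% in *Tuba1a*, 17.8% in *Tuba1b* and 39.0% in *Tuba1c* occurred in no other gene outside the locus, and within the coding sequence the shares were 13.8%, 5.43% and 9.38%. Genes that overlap a tubulin gene were left out of this comparison. Among them is *Gm49450*, which overlaps *Tuba1a* by 3715 and *Tuba1b* by 2429 bases on the same strand and has no row in the deposited counts. The coding sequences of *Tuba1a* and *Tuba1b* were 98.3% identical, and *Tuba1c* matched them at 97.1% and 97.9%. These 3 genes lie together on chromosome 15, *Tuba1b* at 98931425 to 98934565 and *Tuba1a* at 98949837 to 98953703, both on the minus strand and 15.3 kb apart, and *Tuba1c* at 99029891 to 99038110 on the plus strand. *Tubb2a* (chromosome 13, 34074274 to 34078007, minus strand) and *Tubb2b* (34126748 to 34130466, minus strand) are also neighbours, 48.7 kb apart, with 96.5% coding identity and with 50.4% and 60.7% of 50-base stretches of their own. *Tubb4b* (chromosome 2, 25222160 to 25224702, minus strand) had 49.1%, where the stretches it shared lay mostly in its processed copies *Tubb4b-ps1* and *Tubb4b-ps2*. The other 4 genes were almost fully distinguishable at 50 bases. They are *Tuba4a* (98.9%, chromosome 1, 75214228 to 75219865, minus strand), *Tuba8* (99.8%, chromosome 6, 121210696 to 121226854, plus strand), *Tubb5* (99.9%, chromosome 17, 35833921 to 35838306, minus strand) and *Tubb6* (100% at this length, chromosome 18, 67390717 to 67402749, plus strand). The read length is not given in the sources used here. Reads that aligned to more than 1 place were set apart in the deposited files and assigned to no gene, so the levels of *Tuba1a*, *Tuba1b*, *Tuba1c*, *Tubb2a*, *Tubb2b* and *Tubb4b* are uncertain by the reads lost in this way.

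**Figure D1:**
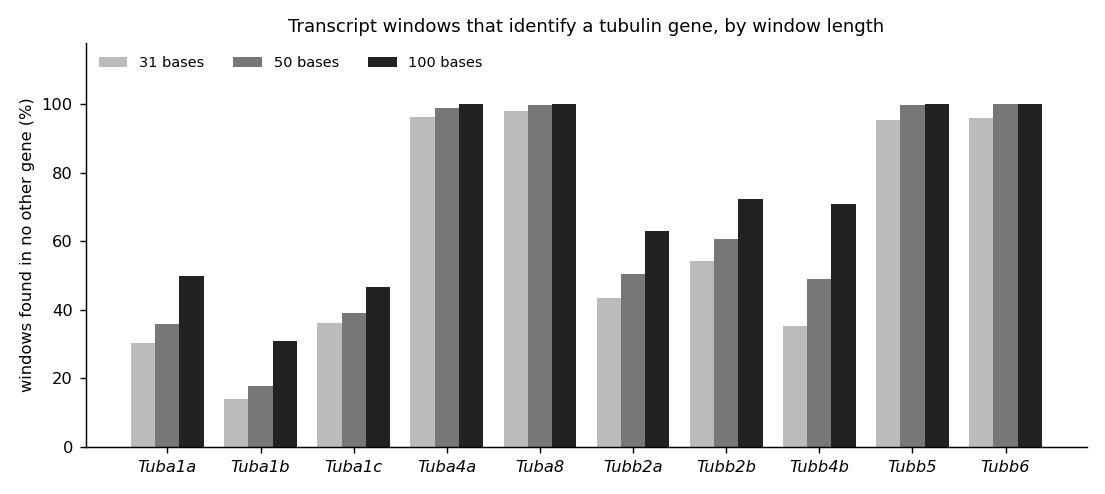
Share of windows along the longest transcript (vertical axis, %) that occur in the transcripts of no other gene outside the locus, for windows of 31, 50 and 100 bases (light to dark bars) in each tubulin gene (horizontal axis). *Tuba4a*, *Tuba8*, *Tubb5* and *Tubb6* are above 95% at every length, whereas *Tuba1b* goes from 14.0% at 31 bases to 30.9% at 100 bases.

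Levels were compared between genes per kb of exon. In floxed IngWAT *Tuba1a* was the highest tubulin mRNA at 95.4 ± 59.9 cpm per kb (SD, n = 3). It was followed by *Tubb5* (30.8 ± 15.5), *Tubb4b* (28.7 ± 17.9), *Tuba1b* (21.6 ± 13.2) and *Tubb2a* (10.7 ± 5.78 cpm per kb). A lower set was formed by *Tubb6* (4.73 ± 1.57), *Tuba4a* (4.11 ± 1.84), *Tuba1c* (3.16 ± 0.649), *Tuba8* (1.84 ± 0.757) and *Tubb2b* (0.740 ± 0.334 cpm per kb). Of the 9 pairs of neighbours in this order 7 had overlapping sample ranges, and the exceptions were the steps from *Tubb2a* to *Tubb6* and from *Tuba8* to *Tubb2b*. In H3atKO samples *Tuba1a* was again the highest at 42.7 ± 30.1 cpm per kb (SD, n = 3) and *Tubb2b* the lowest at 0.338 ± 0.284, while *Tubb6* went from the sixth place to the ninth (1.33 ± 0.457) and *Tuba8* (2.68 ± 0.935) stood above *Tuba1c* (1.91 ± 1.32), with overlapping ranges. Because *Tuba1a*, *Tuba1b* and *Tuba1c* share most of their sequence, their order is uncertain by the reads that each lost.

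The summed tubulin mRNA had a lower mean in H3atKO IngWAT, by about the same factor for both subunits, but floxed samples varied widely. The alpha tubulins summed to 347, 288 and 82.6 cpm in floxed replicates 1 to 3 and to 71.4, 178 and 70.7 cpm in H3atKO replicates 1 to 3, with means 2.24-fold apart and overlapping groups. The beta tubulins summed to 306, 158 and 115 cpm in floxed and to 112, 75.4 and 74.7 cpm in H3atKO samples, with means 2.21-fold apart, and here every H3atKO sample lay under every floxed one. After the GC correction the alpha sums were 195, 197 and 79.2 cpm in floxed and 87.1, 234 and 124 cpm in H3atKO samples, with means 1.06-fold apart. The beta sums were then 176, 110.1 and 110.2 cpm in floxed and 134, 102 and 127 cpm in H3atKO samples, with means 1.09-fold apart, and both sums overlapped between the groups. The ratio of alpha to beta, per kb of exon, was 1.64 ± 0.775 in floxed and 1.72 ± 1.14 in H3atKO samples (SD, n = 3 each). Whether fewer cells of a type or less RNA per cell underlies a lower level cannot be told apart in these bulk samples.

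Gene by gene, the log2 fold change was negative for 9 of the 10 tubulins and positive for *Tuba8*, with a median of -1.06 against -0.09 over all 14967 genes that passed the filter of 1 cpm in at least 1 sample. All 10 tubulins passed it. With library sizes alone in place of the TMM factors all 10 were negative, and so was the median of all genes (-0.94). limma called 1 of the 10 down-regulated at an adjusted p under 0.05 and 0 upregulated, where 7.07% of all genes were called lower and 9.42% higher (16.5% in either direction). At an unadjusted p under 0.05 there were 4 lower and 0 higher, beside 23.4% and 20.4% of all genes. edgeR and DESeq2 each called 3 lower and 0 higher, beside 18.4% and 12.8% of all genes with edgeR and 23.2% and 19.6% with DESeq2. With the replicate number as a block, 5 of the 10 were called lower and 0 higher, beside 28.7% and 24.8% of all genes (53.5% in either direction). The labels give these numbers no meaning, so the pairing in the block is an assumption. The H3atKO samples lay fully under the floxed samples for 3 of the 10 (*Tubb2a*, *Tubb5* and *Tubb6*) and fully above them for 0, against 28.6% and 23.1% of all genes (51.7% in either direction).

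Among the alpha tubulins limma called none in the unblocked fit of all 6 samples with TMM factors, although some alternatives did, and for each of them the range of the floxed samples was wider than the distance between the group means. *Tuba1a*, the main alpha tubulin of developing neurons and also made in many other tissues, was measured at 254, 213 and 49.4 cpm in floxed replicates 1 to 3 and at 33.8, 138 and 59.4 cpm in H3atKO replicates 1 to 3. Floxed replicate 3 sat with the low H3atKO samples and H3atKO replicate 2 between the groups. The log2 fold change was -1.10 (SE 0.73, adjusted p = 0.269 from limma; GC-corrected -0.19).

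*Tuba1b*, the alpha tubulin of dividing and most other cells, was at 55.3, 54.4 and 11.9 cpm in floxed and at 8.94, 12.8 and 2.53 cpm in H3atKO samples. The fitted difference was 4.81-fold, the widest among the 10 genes, yet floxed replicate 3 fell among the H3atKO values. Its log2 fold change was -2.27 (SE 0.88, adjusted p = 0.0928 from limma), and with the replicate block, which compares samples of the same number, it was -2.33 (SE 0.23, adjusted p = 0.00288). It was lower in H3atKO for each of the 3 numbers, and it was called lower by edgeR (adjusted p = 0.0485) and DESeq2 (adjusted p = 0.00597). When GC content was corrected in the blocked fit the value was -0.94 (SE 0.20, adjusted p = 0.0287), the one tubulin that limma called lower in that fit, beside 9.84% of all genes (22.8% in either direction).

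*Tuba1c*, the third gene of the chromosome 15 group, had 8.72, 5.75 and 7.19 cpm in floxed and 7.62, 3.87 and 1.64 cpm in H3atKO samples, with overlapping groups (log2 fold change -0.91, SE 0.54, adjusted p = 0.224 from limma). *Tuba4a*, known from muscle, brain and platelets, had 23.1, 11.9 and 10.7 cpm in floxed and 13.2, 16.6 and 3.41 cpm in H3atKO samples (-0.61, SE 0.60, adjusted p = 0.452). Without H3atKO replicate 3, the lowest sample, the log2 fold change of *Tuba4a* was 0.030. Both genes turned to positive values after the GC correction, 0.70 for *Tuba1c* (adjusted p = 0.349 from limma) and 0.18 for *Tuba4a* (adjusted p = 0.815). *Tuba4a* overlaps *Stk16* on the opposite strand by 1379 bases.

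*Tuba8*, an alpha tubulin of striated muscle, testis and brain, was the one member with a higher mean in H3atKO. It was at 6.13, 2.93 and 3.45 cpm in floxed and at 7.87, 6.58 and 3.73 cpm in H3atKO samples, where floxed replicate 1 lay among the H3atKO values. The log2 fold change was 0.57 (SE 0.47, adjusted p = 0.366 from limma), and -0.31 with library sizes alone, where the median of all genes was -0.94. After the GC correction, on the log2 scale, floxed samples were at 1.87, 1.06 and 1.73 and H3atKO samples at 3.23, 3.10 and 2.68, so that the groups no longer overlapped. Before the correction 23.1% of all genes lay fully higher in H3atKO, and the share after it was not computed. The difference was then 1.46 (SE 0.33, adjusted p = 0.0435 from limma; 5.46% of all genes were called higher in this fit). With the block added to the correction it was also 1.46 (SE 0.29, adjusted p = 0.0246), where 12.9% of all genes were called higher. Skeletal muscle markers, read beside it because the gene is used in muscle, summed to 936, 516 and 3005 cpm in floxed and 464, 3819 and 25.2 cpm in H3atKO samples. Of the 6 markers, 2 had a higher and 4 a lower mean in H3atKO, 0 were called and none was at 0 in every sample. The part of muscle cells in the level of *Tuba8* was not tested. *Tuba8* overlaps the antisense gene *Gm15856* by 2462 bases.

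**Figure D2:**
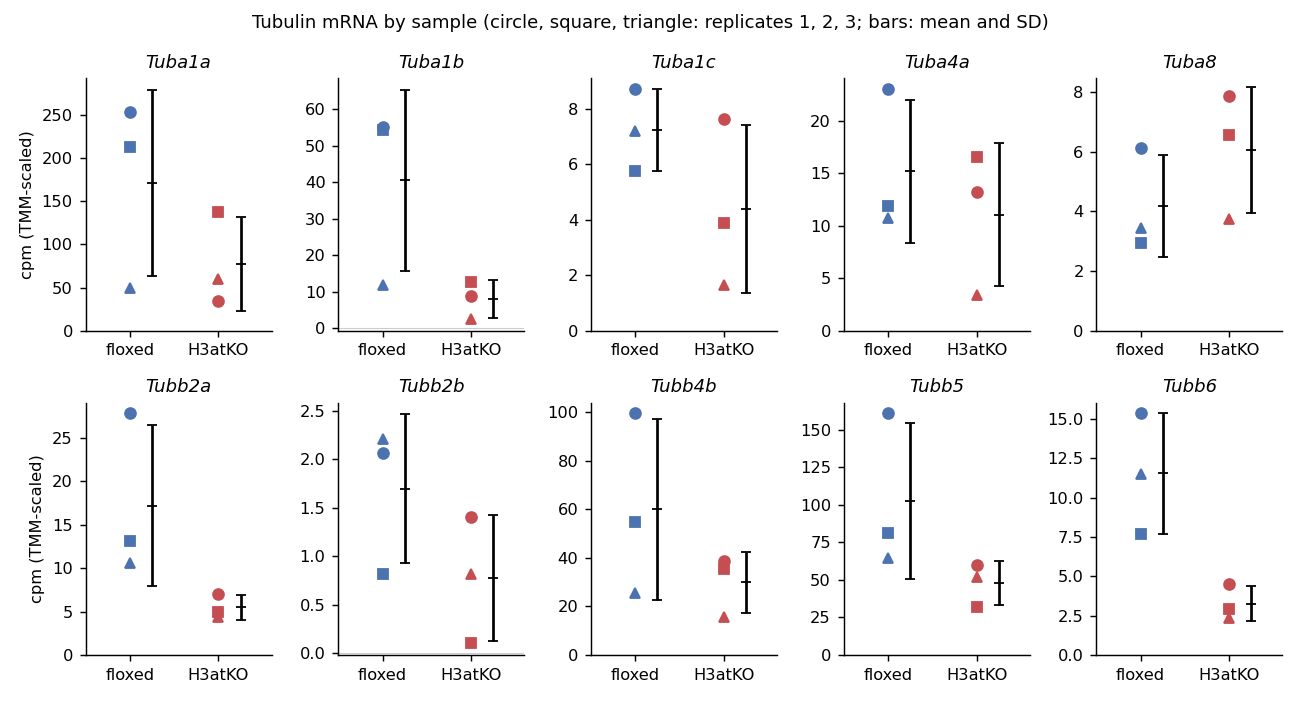
Level of each tubulin mRNA (vertical axis, cpm scaled by TMM factors, starting near 0) in the 3 floxed (blue) and 3 H3atKO samples (red), with circles, squares and triangles for replicates 1, 2 and 3 and black bars for the mean ± SD. *Tubb2a*, *Tubb5* and *Tubb6* have every H3atKO point under every floxed point, *Tuba1a* and *Tuba1b* have floxed replicate 3 among the H3atKO points, and *Tuba8* has the higher mean in H3atKO.

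The beta tubulins showed lower values more evenly. *Tubb6*, a minor and widely made beta tubulin, was at 15.4, 7.72 and 11.5 cpm in floxed and at 4.49, 2.91 and 2.34 cpm in H3atKO samples, a fitted difference of 3.48-fold. It was the gene called down-regulated by limma (log2 fold change -1.80, SE 0.45, adjusted p = 0.0408), and also by edgeR (adjusted p = 0.0272), DESeq2 (adjusted p = 0.000838) and limma with the replicate block (adjusted p = 0.00506). Leaving out any of the 3 H3atKO samples, or floxed replicate 1 or 2, ended the call (adjusted p up to 0.145 from limma, log2 fold change -2.09 to -1.56 over the 6 fits), and without floxed replicate 3 the adjusted p was 0.0243. *Tubb6* also has the highest GC content of the 10 transcripts, 56.6%. After the GC correction its log2 fold change was -0.12 (SE 0.48, adjusted p = 0.887 from limma), and with the block in addition it was -0.06 (adjusted p = 0.903).

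*Tubb2a*, a beta tubulin of brain and many other tissues, had 27.9, 13.1 and 10.6 cpm in floxed and 7.04, 5.00 and 4.36 cpm in H3atKO samples, with a fitted difference of 2.92-fold and no overlap. limma gave -1.54 (SE 0.51, adjusted p = 0.0666), the block -1.61 (adjusted p = 0.00517) and edgeR and DESeq2 adjusted p-values of 0.0355 and 0.00472, while the GC correction left -0.20 (adjusted p = 0.632). Its neighbour *Tubb2b*, which is made mainly in neurons, had few counts, with 94, 34 and 91 in floxed and 34, 2 and 13 in H3atKO samples. The 2 counts of H3atKO replicate 2 lie under the floor of 3 counts, and the log2 fold change of -1.51 (SE 0.94, adjusted p = 0.240 from limma) has a large error.

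*Tubb5*, the most widely used beta tubulin of the body, was at 161, 81.2 and 64.7 cpm in floxed and at 60.004, 32.0 and 51.6 cpm in H3atKO samples. The lowest floxed and the highest H3atKO sample were close, but the groups did not overlap. The log2 fold change was -1.03 (SE 0.41, adjusted p = 0.0995 from limma), the block gave -1.04 (adjusted p = 0.0207) and the GC correction -0.37 (adjusted p = 0.494). *Tubb4b*, common in cells with cilia and in most others, had 99.6, 54.8 and 25.6 cpm in floxed and 38.75, 35.4 and 15.6 cpm in H3atKO samples, with each H3atKO sample under the floxed sample of its number although the groups overlapped. Without the block limma gave -0.86 (SE 0.58, adjusted p = 0.272) and with it -0.93 (SE 0.22, adjusted p = 0.0169), but the value was 0.38 after the GC correction (adjusted p = 0.421) and 0.35 with both (adjusted p = 0.206). *Tubb4b* overlaps *Fam166a* on the opposite strand by 121 bases.

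Floxed replicate 3 decided several of these calls. Without it limma called 6 tubulins lower, namely *Tuba1a* (adjusted p = 0.0324), *Tuba1b* (0.00810), *Tubb2a* (0.0198), *Tubb4b* (0.0441), *Tubb5* (0.0364) and *Tubb6*, beside 25.9% of all genes called lower and 18.5% called higher. With any other single sample left out it called 0 tubulins and at most 0.930% of all genes lower, so that the count of tubulins moved with that of all genes. Floxed replicate 1 had the highest level of 8 of the 10 genes and H3atKO replicate 3 the lowest of 6. The same samples stood at the ends of the GC order given above. After the GC correction limma called 0 tubulins lower and 1 higher, beside 3.20% and 5.46% of all genes (8.66% in either direction), 6 had a negative and 4 a positive log2 fold change, and the median was -0.15 against 0.02 over all genes.

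**Figure D3:**
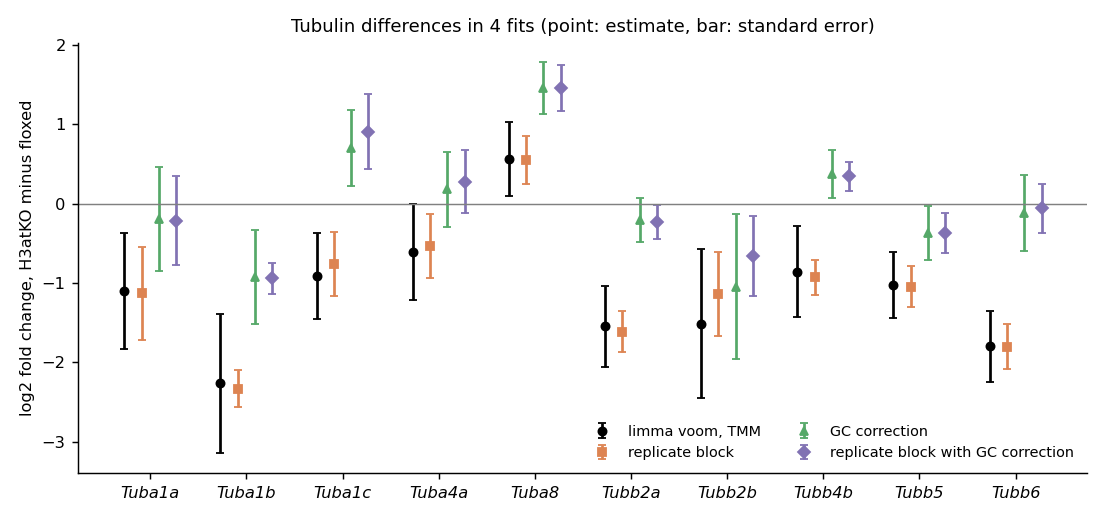
log2 fold change of each tubulin (vertical axis, H3atKO minus floxed, bars are standard errors) in 4 limma fits, without and with the block, each without and with correction for GC content. The uncorrected estimates, with and without the block, are below 0 for all genes but *Tuba8*, and the GC-corrected estimates lie nearer 0 for *Tubb6* (-0.12) and above 0 for *Tuba1c*, *Tuba4a*, *Tuba8* and *Tubb4b*.

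The mix of isotypes was read as the share of each gene in the alpha or beta counts per kb of exon, a measure in which a change common to all tubulins cancels. *Tuba1a* made up 76.9, 76.6 and 66.4% of alpha tubulin in floxed and 55.3, 82.8 and 87.7% in H3atKO samples, so the lowest and the highest share both fell in the H3atKO group. *Tuba1b* held 16.1, 18.8 and 15.3% in floxed and 14.1, 7.38 and 3.59% in H3atKO samples, with no overlap (16.8% ± 1.84 against 8.35% ± 5.31, SD, n = 3 each; exact two-sided permutation p = 0.1). *Tuba8* had 1.48, 0.841 and 3.69% in floxed and 10.3, 3.14 and 4.39% in H3atKO samples (exact permutation p = 0.2). *Tuba1c* held 1.63 to 7.62% in floxed and 1.83 to 9.84% in H3atKO samples, and *Tuba4a* 2.08 to 7.01% and 2.46 to 10.5%, with wide overlap for both.

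Among the beta tubulins *Tubb5* and *Tubb4b* together made up most of the sum. *Tubb5* held 40.2, 39.2 and 44.2% in floxed and 41.5, 31.1 and 57.4% in H3atKO samples, and *Tubb4b* 39.5, 42.1 and 27.8% and 42.7, 54.9 and 27.7%. *Tubb2a* held 14.3, 13.1 and 15.0% in floxed samples and 10.07, 10.04 and 10.03% in H3atKO samples (14.1% ± 0.984 against 10.05% ± 0.0231, SD, n = 3 each, exact permutation p = 0.1). The narrow H3atKO spread held on this scale alone and rests on 171, 98 and 69 counts of *Tubb2a*. The SD of its H3atKO share was 0.397 on raw counts, 1.06 after the GC correction and 1.05 by positions unique at 50 bases. *Tubb6* held 5.22, 5.08 and 10.7% in floxed and 4.24, 3.86 and 3.55% in H3atKO samples (exact permutation p = 0.1). For each of the 10 shares the smallest p that 3 against 3 samples allow is 0.1, so none could pass 0.05. Dividing by the positions unique at 50 bases in place of the exon length kept the groups of *Tuba1b*, *Tubb2a* and *Tubb6* apart. After the GC correction the groups overlapped for all 3, with 14.8% against 9.24% for *Tuba1b*, 12.7% against 11.3% for *Tubb2a* and 6.003% against 4.91% for *Tubb6*.

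**Figure D4:**
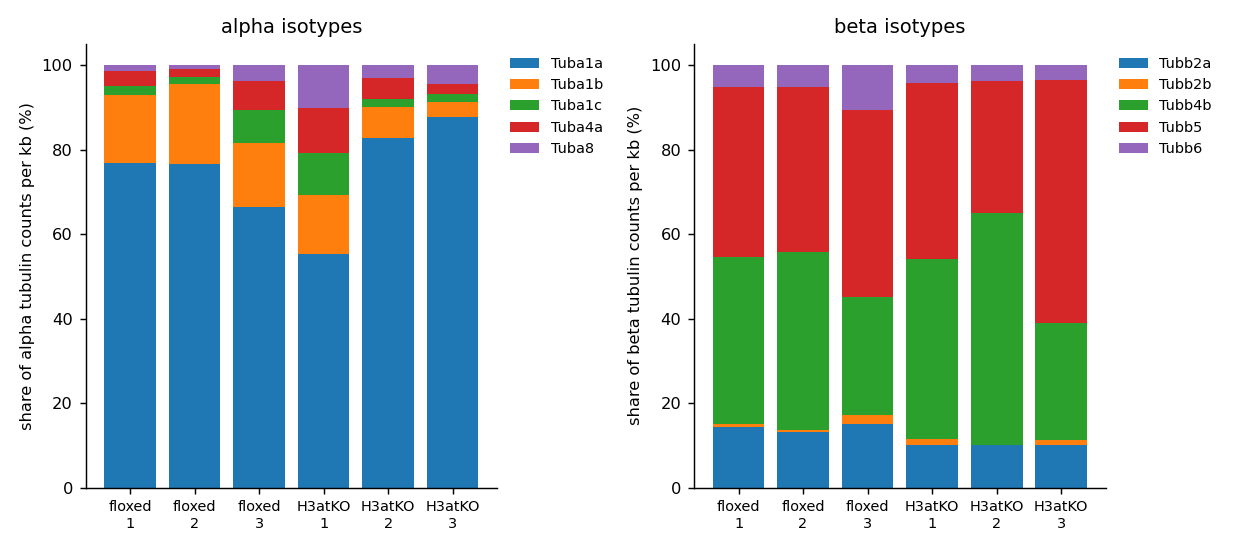
Share of each isotype in the alpha (left) and beta (right) tubulin counts per kb of exon (vertical axis, %, stacked to the whole) in each of the 6 samples. *Tuba1a* takes between 55.3 and 87.7% of alpha tubulin, and the *Tubb2a* and *Tubb6* bands are thinner in all 3 H3atKO samples than in any floxed sample.

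Of 10 further tubulin genes that were looked up, 5 passed the filter. *Tuba3a*, *Tuba3b* and *Tubal3*, of testis and other special sites, had 0 counts in every sample. For counting error alone this allows up to 0.190 cpm in the sample of lowest depth. Reads that aligned to more than 1 place were assigned to no gene, and unique stretches were not computed for these genes. The 0 counts therefore set no bound on a level from such reads. *Tubb4a*, a beta tubulin of the nervous system, was measured at 4.35, 2.28 and 3.99 cpm in floxed and 0.453, 0.408 and 0.190 cpm (11, 8 and 3 counts) in H3atKO samples, without overlap. It was the one gene of this list that limma called without the block (log2 fold change -3.22, SE 0.67, adjusted p = 0.0296), and after the GC correction the value was -1.42 (adjusted p = 0.259). Schwann cell and nerve markers moved with it. They summed to 95.0 to 121 cpm in floxed and 45.4 to 65.0 cpm in H3atKO samples, 5 of 6 had the lower mean in H3atKO, 2 were called lower and none was at 0 in every sample. Their part in the result was not tested.

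Genes that build, control and use microtubules were described from 7 lists of 122 genes, of which 110 passed the filter. limma called 6 of them up and 6 down (5.45% each, against 9.42% and 7.07% of all genes), with a median log2 fold change of -0.09, the same as over all genes. The replicate block called 18 up and 41 down (24.8% and 28.7% of all genes). With edgeR the counts were 10 and 30 (12.8% and 18.4% of all genes), and after the GC correction 6 and 4 (5.46% and 3.20%). With any sample but floxed replicate 3 left out limma called 0 of these genes, beside at most 3.57% of all genes in either direction, and without floxed replicate 3 it called 14 up and 38 down, beside 18.5% and 25.9% of all genes.

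The folding list, with the chaperonin CCT, prefoldin and the tubulin cofactors that bring new tubulin chains into the heterodimer, had 3 of 21 genes up and 1 down by limma, against 4 and 5 by edgeR, 4 and 6 by DESeq2, 5 and 6 at an unadjusted p under 0.05 and 4 and 7 with the block. Of all genes 9.42% were up and 7.07% down by limma, 12.8% and 18.4% by edgeR and 19.6% and 23.2% by DESeq2. The shares were 20.4% and 23.4% at an unadjusted p under 0.05 and 24.8% and 28.7% with the block. They stand beside the counts of every list below. *Cct6a*, a chaperonin subunit, was at 102, 116 and 141 cpm in floxed and 260, 278 and 243 cpm in H3atKO samples, with every H3atKO sample above every floxed one (log2 fold change 1.13, SE 0.23, adjusted p = 0.0271 from limma), and it stayed at 0.93 after the GC correction (adjusted p = 0.0258). *Pfdn5*, a prefoldin subunit, went the other way, from 93.2, 78.3 and 40.4 cpm to 16.8, 12.6 and 4.49 cpm (-2.70, SE 0.56, adjusted p = 0.0289; -1.55 after the GC correction, adjusted p = 0.0354). *Vbp1*, another prefoldin subunit, and *Tbca*, which receives beta tubulin, rose by log2 values of 1.52 and 1.03 (adjusted p = 0.0435 and 0.0471 from limma), but were at 0.27 and 0.29 after the GC correction (adjusted p = 0.279 and 0.465). Within prefoldin, then, 1 called subunit rose and another fell.

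Tubulin mRNA is also destroyed when free heterodimers are in excess. The protein TTC5 meets the start of a nascent tubulin chain on the ribosome and brings in SCAPER and the CCR4-NOT deadenylase. The first 12 bases of the coding sequence, which code for the stretch that TTC5 reads, are given in capitals throughout because the whole stretch is the element.
Tuba1a, Tuba1b and Tuba1c: ATGCGTGAGTGC
Tuba4a: ATGCGCGAGTGC
Tuba8: ATGAGGGAATGC
Tubb2a: ATGCGCGAGATC
Tubb2b: ATGCGAGAGATC
Tubb4b: ATGAGGGAGATC
Tubb5: ATGAGGGAAATC
The alpha genes end this stretch in TGC, and *Tubb2a*, *Tubb2b*, *Tubb4b* and *Tubb5* end it in ATC. Of the 4 genes of the list, limma called 0, and edgeR and DESeq2 each called 1, *Ttc5*, which was also the 1 gene at an unadjusted p under 0.05. The block called 1 up and 1 down, *Cnot11* and *Ttc5*. *Cnot1*, the scaffold of CCR4-NOT, was at 80.5 ± 12.2 cpm in floxed and 94.6 ± 14.0 cpm in H3atKO samples (SD, n = 3 each; log2 fold change 0.24, adjusted p = 0.457 from limma), and *Cnot11*, the subunit that SCAPER binds, at 21.3 ± 2.67 and 30.8 ± 1.29 cpm (0.54, adjusted p = 0.126; 1.15 after the GC correction, adjusted p = 0.0451). *Ttc5* itself, named after its values were seen, was at 16.9, 17.1 and 14.0 cpm in floxed and 9.97, 6.68 and 6.39 cpm in H3atKO samples. All 3 H3atKO values lay under all floxed ones, and the log2 fold change was -1.06 (SE 0.32, adjusted p = 0.0562 from limma), -1.06 with the block (adjusted p = 0.0129) and -1.41 after the GC correction (adjusted p = 0.0408).

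Of 24 genes that modify tubulin or remove such marks, 19 passed the filter, 0 were called up and 1 down by limma, against 1 and 6 by edgeR, 1 and 7 by DESeq2, 2 and 5 at an unadjusted p under 0.05 and 2 and 9 with the block. Of all genes 9.42% were up and 7.07% down by limma, 12.8% and 18.4% by edgeR and 19.6% and 23.2% by DESeq2. At an unadjusted p under 0.05 the shares were 20.4% and 23.4%, and with the block 24.8% and 28.7%. The gene called by limma was *Sirt2*, a deacetylase with tubulin among its substrates, with 83.8, 55.7 and 40.2 cpm in floxed and 24.7, 24.0 and 11.4 cpm in H3atKO samples (log2 fold change -1.56, SE 0.42, adjusted p = 0.0459 from limma; GC-corrected -0.49, adjusted p = 0.167). Among 28 measured microtubule-associated proteins 1 was up and 3 were down by limma, against 2 and 9 by edgeR, 3 and 9 by DESeq2, 3 and 7 at an unadjusted p under 0.05 and 4 and 10 with the block. The same shares of all genes stand beside these counts. *Map1a*, which stabilises microtubules mainly in neurons, was at 16.8, 12.3 and 6.68 cpm in floxed and at 1.07, 1.63 and 0.822 cpm in H3atKO samples, a fitted difference of 9.60-fold (-3.26, SE 0.61, adjusted p = 0.0243), and remained called after the GC correction (-2.04, adjusted p = 0.0219). *Map4*, the main such protein outside neurons, fell from 157 ± 31.5 to 61.6 ± 27.8 cpm (SD, n = 3 each; -1.42, adjusted p = 0.0453 from limma; GC-corrected -0.53, adjusted p = 0.227).

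*Camsap3*, which holds free minus ends, fell by 3.63 on the log2 scale (adjusted p = 0.0437 from limma; GC-corrected -2.02, adjusted p = 0.0612), with at most 0.288 cpm in any H3atKO sample. *Katna1*, the catalytic subunit of the severing enzyme katanin, rose from 23.0 ± 2.97 to 45.3 ± 3.36 cpm (SD, n = 3 each; 0.98, adjusted p = 0.0365 from limma; GC-corrected 0.50, adjusted p = 0.121). Of 25 motor genes limma called 1 up and 0 down, against 2 and 5 by edgeR, 2 and 7 by DESeq2, 3 and 6 at an unadjusted p under 0.05 and 3 and 8 with the block. Of all genes 12.8% were up and 18.4% down by edgeR, 19.6% and 23.2% by DESeq2 and 24.8% and 28.7% with the block. The called gene was *Kif2a*, a kinesin that takes microtubule ends apart, at 25.4, 32.0 and 60.8 cpm in floxed and 97.5, 92.0 and 124 cpm in H3atKO samples (1.498, SE 0.35, adjusted p = 0.0362; 0.36 after the GC correction, adjusted p = 0.244). In the list of the gamma-tubulin ring complex, from which microtubules start, *Tubgcp4* was the 1 gene of 8 called up (1.14, SE 0.31, adjusted p = 0.0465 from limma; GC-corrected 0.85, adjusted p = 0.0613). limma called 0 of them down, whereas edgeR gave 1 up and 3 down, DESeq2 and an unadjusted p under 0.05 each gave 3 up and 3 down, and the block gave 4 up and 3 down. The shares of all genes are those given for the motor and folding lists.

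**Figure D5:**
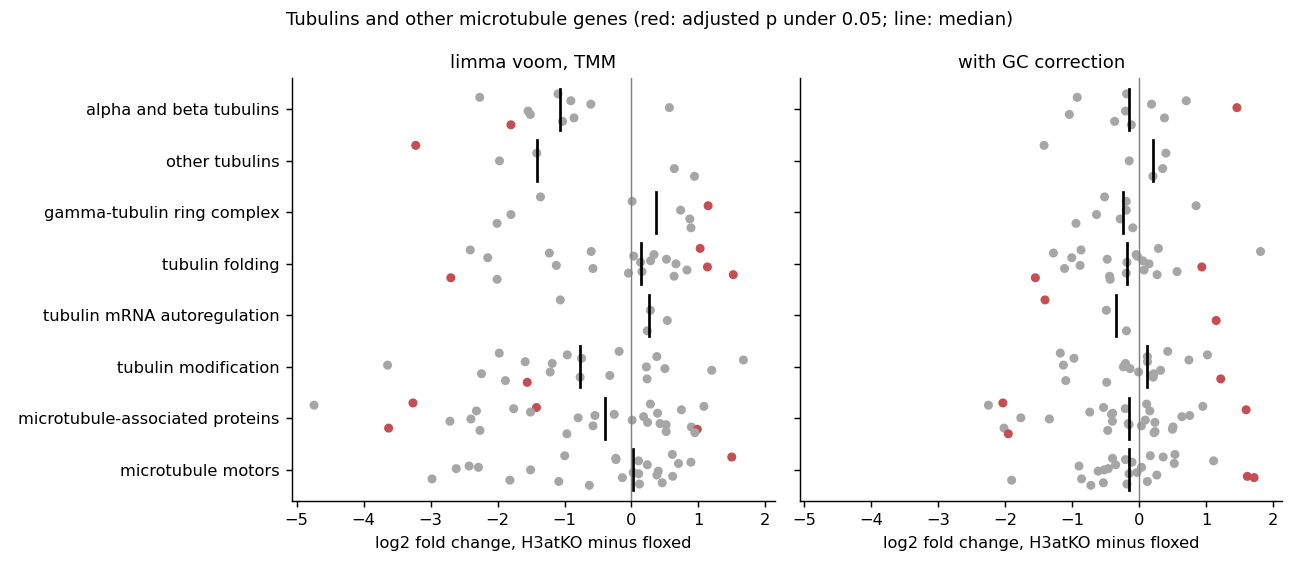
log2 fold change (horizontal axis, H3atKO minus floxed) of every tubulin and microtubule gene that passed the filter, by list, from limma without (left) and with (right) the GC correction, with genes at an adjusted p under 0.05 in red and the median of each list as a black line. The alpha and beta tubulins have a median of -1.06 on the left and -0.15 on the right.

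Markers of the other cells of the tissue were read beside the tubulins. Smooth muscle and pericyte markers summed to 1383, 1159 and 362 cpm in floxed and 484, 750 and 626 cpm in H3atKO samples. Of these 6 markers, 5 had the lower and 1 the higher mean in H3atKO, and limma called 3 lower and 0 higher. Of all genes limma called 7.07% lower and 9.42% higher, and these shares stand beside the counts of each marker list below. DESeq2 called 5 of the 6 lower and 1 higher, beside 23.2% and 19.6% of all genes. *Rgs5*, named after its values were seen, was at 8.49, 9.13 and 8.40 in H3atKO replicates 1 to 3 (log2, GC-corrected). *Acta2* was at 3.57, 3.95 and 3.02 there. The sums above are uncorrected cpm, so these values do not give the part of each marker in them. After that correction *Rgs5* overlapped between the groups, whereas *Acta2*, *Myh11*, *Tagln*, *Cspg4* and *Cnn1* lay fully lower in H3atKO. Endothelial markers ranged from 566 to 981 cpm in floxed and 382 to 516 cpm in H3atKO samples (5 of 6 lower, 2 called). Fibroblast progenitor markers ranged from 516 to 1895 and 307 to 433 cpm (6 of 6 lower, 1 called). Both sums separated the groups as *Tubb2a*, *Tubb5* and *Tubb6* did, but 28.6% of all genes also lay fully lower in H3atKO. After the GC correction the groups overlapped for *Kdr* and *Tie1* of the endothelial markers. They also overlapped for *Pdgfra*, *Dpp4*, *Col1a1* and *Ly6a* of the progenitor markers, while the other markers of these lists stayed fully lower. The share of all genes that lay fully lower after that correction was not computed, here or for the other marker lists. Macrophage markers ranged from 381 to 2144 cpm in floxed, with floxed replicate 3 the highest, and 333 to 586 cpm in H3atKO samples (6 of 6 lower, 2 called). No marker of these 4 lists was at 0 in every sample, and the part of these cells in the tubulin levels was not tested. Lymphocyte markers ranged from 4.01 to 102 and 4.74 to 356 cpm (5 of 6 higher, 0 called) and those of the epithelium from 0.745 to 3.50 and 0 to 9.04 cpm, with 4 of 6 lower and 0 called. Proliferation genes, read because *Tuba1b* and *Tubb5* are used in the mitotic spindle, summed to 24.96 to 65.1 cpm in floxed and 36.1 to 102 cpm in H3atKO samples. Of 12 such genes 0 were called by limma or edgeR without the block, 1 was lower by DESeq2 or at an unadjusted p under 0.05, 3 were higher and 1 lower with the block, and 5 were higher with quality weights. Of all genes 24.8% were higher and 28.7% lower with the block, and 26.7% were higher with quality weights.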

How the data were processed

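RNA-seq was done on 6 pools of IngWAT RNA, 3 per genotype. Per the labels and the study's methods, the authors made stranded poly(A) libraries, trimmed reads with cutadapt 1.3, aligned them to GRCm38 with STAR 2.4.2a and tallied raw counts per gene with HTSeq 0.6.1, and the deposited files hold these counts with no normalisation. The strand setting of the counting is not given in the sources used here. Symbols, positions, exon lengths and GC content came from GENCODE M21, where 46005 of 46517 identifiers matched. The study's methods name limma, so genes that reached 1 cpm in 1 or more samples were kept, and their counts were scaled by TMM factors and fitted with limma 3.58.1 (voom) in R 4.3.3, with Benjamini-Hochberg adjustment over the 14967 genes kept and a call at an adjusted p under 0.05. The levels in cpm use the same TMM factors, and the depth of 23865507 to 35200685 counts per sample sets their counting precision.

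Alternatives were edgeR 4.0.16 (quasi-likelihood), DESeq2 1.42.0, other scalings and filters, quality weights, each sample left out in turn, a threshold of 0.1, the replicate number as a block, and a GC correction that subtracts from each sample a robust loess curve (span 0.3) on transcript GC content. The correction also removes any effect of genotype that runs with GC content. The deviations of same-numbered samples of both groups from their group means correlated across genes with r of 0.510, 0.389 and 0.264 for numbers 1 to 3. The block takes the numbers to pair the samples, which is an assumption drawn from these same data. Correlations between samples of unlike number are not given, so these values do not establish a pairing. The labels do not say what the numbers stand for. Isotype shares used counts per kb of exon and an exact two-sided permutation test, and the share by unique positions was added after the data had been seen. Sequence stretches were compared by exact match on both strands with all GENCODE M21 transcripts except those of genes that overlap the tubulin gene. The fits were tested on simulated counts. All 10 tubulins are named. From each pathway list the called genes with the smallest p were named (at most 4), or, where none was called, the 2 genes with the highest mean cpm. The members and lists were chosen with earlier results of these data known. Rows of unassigned reads were left out of the library sizes. Some coding sequence ends are not reported here.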

Additional observations from a re-analysis of the deposited data

Results flagged for a closer look

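Alignments at more than 1 place, which the deposited files hold in a row of their own and which no comparison above uses, were 30.95% ± 3.68 of the total in floxed (28.3 to 35.2%) and 44.7% ± 0.849 in H3atKO samples (43.8 to 45.5%, SD, n = 3 each). Reads from the stretches that *Tuba1a*, *Tuba1b*, *Tuba1c*, *Tubb2a*, *Tubb2b* and *Tubb4b* share with other genes fall in this row, and its part in their lower counts in H3atKO was not tested. Of the genes whose 50-base stretches are 98.9% or more their own, *Tuba4a*, *Tuba8*, *Tubb5* and *Tubb6* had log2 fold changes of -0.61, 0.57, -1.03 and -1.80 beside it, and 0.18, 1.46, -0.37 and -0.12 after the GC correction.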

How the results depend on the processing

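The count of tubulins called lower, 1 by limma, was 3 with edgeR (18.4% of all genes lower) and 3 with DESeq2 (23.2%), 7 with library sizes alone (37.9%), 2 where 10 counts were required of every sample (15.0%), 5 under quality weights (29.7%), 5 with the replicate block (28.7%), 4 at an adjusted p under 0.1 (21.3%), 0 with the GC correction (3.20%) and 0 to 6 with each sample left out. The 6 calls came without floxed replicate 3 (25.9%). The count called higher, 0, was 1 under quality weights (26.7% of all genes higher), 1 after the GC correction and 1 when the replicate block was added to that. Both counts were the same with RLE factors, no filter and no mitochondrial genes.

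Of the microtubule genes, 6 were called higher and 6 lower (9.42% and 7.07% of all genes). The counts were 10 and 30 with edgeR (12.8% and 18.4%), 13 and 35 with DESeq2 (19.6% and 23.2%) and 0 and 51 with library sizes alone (2.04% and 37.9%). They were 21 and 45 under quality weights (26.7% and 29.7%), 18 and 41 with the replicate block (24.8% and 28.7%) and 13 and 28 at an adjusted p under 0.1 (18.7% and 21.3%). The higher count was 3 with no filter (4.32% of all genes). The lower count was 17 where 10 counts were required of every sample (15.0%) and 13 when GC content was corrected in the blocked fit (9.84%). With each sample left out the higher and lower counts ranged from 0 to 14 and from 0 to 38. Both were highest without floxed replicate 3 (18.5% and 25.9% of all genes). The causes were not tested.

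Of 169 alternative log2 fold changes of the tubulins 126 kept direction and call, 28 gained a call, 7 lost one and 8 turned in sign. With the GC correction, and with the replicate block added to it, *Tuba1c* turned to 0.70 and 0.91, *Tuba4a* to 0.18 and 0.28 and *Tubb4b* to 0.38 and 0.35. *Tuba8* was -0.31 with library sizes alone, and *Tuba4a* ranged from -1.09 to 0.030 with each sample left out. The replicate block turned no direction and added the calls of *Tuba1b*, *Tubb2a*, *Tubb4b* and *Tubb5*.

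Isotype shares turned in 13 of 90 values. In percentage points, H3atKO minus floxed, the GC correction gave -1.39 for *Tuba1a* and -8.37 for *Tubb5*. With each sample left out the differences ranged from -4.24 to 11.9 for *Tuba1a*, -1.90 to 2.67 for *Tuba1c*, -0.517 to 3.51 for *Tuba4a*, -0.509 to 0.300 for *Tubb2b*, -1.28 to 12.3 for *Tubb4b* and -4.88 to 8.29 for *Tubb5*. *Tubb2b*, with 2 to 94 counts per sample, was not kept under the requirement of 10 counts, and its share and fold change are limited by depth.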
